A study of Mus musculus with 5 samples.

Results

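Laminins, nidogens and the heparan sulfate proteoglycans perlecan and agrin build the basement membrane, the thin sheet of extracellular matrix around cardiomyocytes and capillaries. The transcripts of 9 of their genes (Lama2, Lama4, Lamb1, Lamb2, Lamc1, Nid1, Nid2, Hspg2 and Agrn) were followed in SLAMseq libraries of mouse cardiac fibroblasts (CF). The genes were chosen by name from the 20365 gene names of the tables, and each was represented by the 3′ UTR interval with the highest mean deposited CPM in the labeled libraries. All 9 were found, with 14 of the 40428 distinct intervals between them.

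SLAMseq reads new RNA and total RNA in one library. Cells take up 4-thiouridine (S4U) and build it into RNA in place of uridine, and after alkylation the sequencer reports C where the analog sat. Dividing these T>C conversions by the T positions covered by reads gives the T>C conversion rate, which rises with the fraction of a transcript that was made during labeling. It therefore differs between transcripts with their turnover, while the read count follows their level.

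The CF came from hearts of healthy adult male C57Bl/6J wildtype mice, were freed by collagenase perfusion, depleted of CD31+ and CD45+ cells in the study's isolation protocol and grew to confluency before the experiment. The groups differed by S4U, given at 0.1 mM for 12 h to 3 labeled cultures and left out of 2 unlabeled cultures kept in parallel for the same 12 h. RNA of both groups was alkylated with iodoacetamide. The study counts separate CF preparations for the labeled group, and for the unlabeled group the sources do not say whether cultures came from separate animals, so p-values measure the spread between these libraries, which may in part be technical.

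The libraries held 506045 to 1842863 reads on the intervals that represent the genes. Labeled replicate 1 stood apart within its group, while 2 unlabeled libraries cannot show which of them does. Labeled replicates 2 and 3 differed over genes by a chi-square of 2.20 per degree of freedom, whereas labeled replicate 1 differed from them with 18.2 and 12.2, and the 2 unlabeled replicates differed from each other with 17.7. Fibroblast markers (8 genes, led by Col1a1 and Col1a2) summed to 38175 to 41977 CPM in the labeled and to 31055 and 34717 CPM in the unlabeled libraries. Endothelial markers (8 genes) summed to 145 to 256 CPM in the labeled libraries and to 179 and 263 CPM in the unlabeled ones, and among them Cdh5 had 31.6 to 51.0 CPM, Kdr 22.2 to 54.4 CPM, Tek 19.7 to 52.7 CPM and Pecam1 5.71 to 27.6 CPM in the labeled libraries, while Vwf had 0 reads in each of these. Pericyte and smooth muscle markers summed to 90.7 to 196 CPM, macrophage markers to 54.6 to 104 CPM and cardiomyocyte markers to 0.63 to 8.03 CPM over the 5 libraries. In such bulk samples, fewer cells of a type and less RNA per cell cannot be told apart.

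Laminins are trimers of 1 α, 1 β and 1 γ chain that polymerize on the cell surface. Lama2 and Lama4 encode the α2 chain, known from muscle basement membranes, and the α4 chain, known from vessels. Lamb1 and Lamb2 encode β chains, and Lamc1 the γ1 chain, which most laminin trimers share. Nidogens, encoded by Nid1 and Nid2, bind the laminin γ1 chain and link the laminin polymer to the collagen IV network. Perlecan (Hspg2) and agrin (Agrn) carry heparan sulfate, bind laminins and connect the sheet to receptors such as dystroglycan.

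The counted intervals held no coding sequence, and all but that of Agrn lay wholly in the last exon of the canonical transcript of their genes on GRCm39. Lamc1 had the longest one, chr1:153094668-153097218 on the minus strand in exon 28. The interval of Nid1 was chr13:13684653-13686860 on the plus strand in exon 20. That of Nid2 was chr14:19861265-19861855 on the plus strand in exon 21. That of Hspg2 was chr4:137296976-137297941 on the plus strand in exon 97. Agrn was counted on chr4:156249747-156250952 on the minus strand, which starts in exon 36 of the canonical transcript and runs past its 3′ end, still within the gene. The other laminin chains had short intervals of 109 to 210 bases. These were chr10:26857281-26857490 on the minus strand for Lama2 (exon 65), chr10:38986030-38986184 on the plus strand for Lama4 (exon 38), chr12:31379493-31379643 on the plus strand for Lamb1 (exon 33) and chr9:108367620-108367728 on the plus strand for Lamb2 (exon 33). On the opposite strand, the Lama2 interval overlapped the lncRNA Gm48084, that of Lama4 the lncRNA Gm67873, that of Lamb1 the gene Dld and that of Nid2 the gene Rtraf. The library kit keeps the strand, but whether the counting used it was not given in the sources used here, so reads of those partners could have been counted with these 4 members.

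The miR-29 family is known for sites in the 3′ UTRs of matrix genes, and its mature sequences are shown because its seed was searched for in the intervals. The sequences come from RefSeq (GRCm38.p6), with the shared seed, bases 2 to 8, in capitals.
mmu-miR-29a-3p: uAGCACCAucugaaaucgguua
mmu-miR-29b-3p: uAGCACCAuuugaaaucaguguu
mmu-miR-29c-3p: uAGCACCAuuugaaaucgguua

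The matching heptamer TGGTGCT, searched on the transcript strand only, occurred in 2 of the 9 intervals, once in each. The match in Lamc1 ended 1147 bases before the interval end, within the stretch chr1:153095803-153095832 on the minus strand, and the one in Agrn ended 1043 bases before the end, within chr4:156250778-156250807 on the minus strand. Coordinates here and for the motifs that follow are those of the whole printed stretch, and capitals mark the match.
Lamc1: atctgacacacTGGTGCTattaattatttg
Agrn: gagacaaaaagTGGTGCTgagggactccta

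Such a match was present in 23.8% of 2098 intervals within 20% of the length of the Lamc1 interval and in 12.4% of 2436 intervals of a length like that of Agrn. The Pumilio motif TGTANATA occurred once, in Lamc1, where 40.1% of intervals of like length held it. The AU-rich heptamer TATTTAT, part of elements known for fast decay, occurred in Lamc1 and in Nid2, against 45.9% and 15.7% of intervals of like length. In Lamc1 (stretch chr1:153094685-153094714, minus strand) it abutted the last poly(A) signal without overlap, and in Nid2 (stretch chr14:19861708-19861737, plus strand) it lay 130 bases before the end. Capitals mark the heptamer.
Lamc1: aaacagtatttTATTTATaataaaatctga
Nid2: tcctcagacttTATTTATactaaggtgcta

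The poly(A) signal AATAAA was in all 9 intervals, and its last copy ended 12 to 23 bases before the interval end in 8 of them, the distance at which cleavage usually follows. In Lama2 the only copy ended 128 bases before the end. The signals of Nid1 (stretch chr13:13686831-13686860, plus strand), the deepest of the genes, and of Lama2 (stretch chr10:26857396-26857425, minus strand) are shown with AATAAA in capitals.
Nid1: acaactgttaaaAATAAAatcttattttga
Lama2: cctatcatattAATAAAactaatgtgcata

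**Figure D1:**
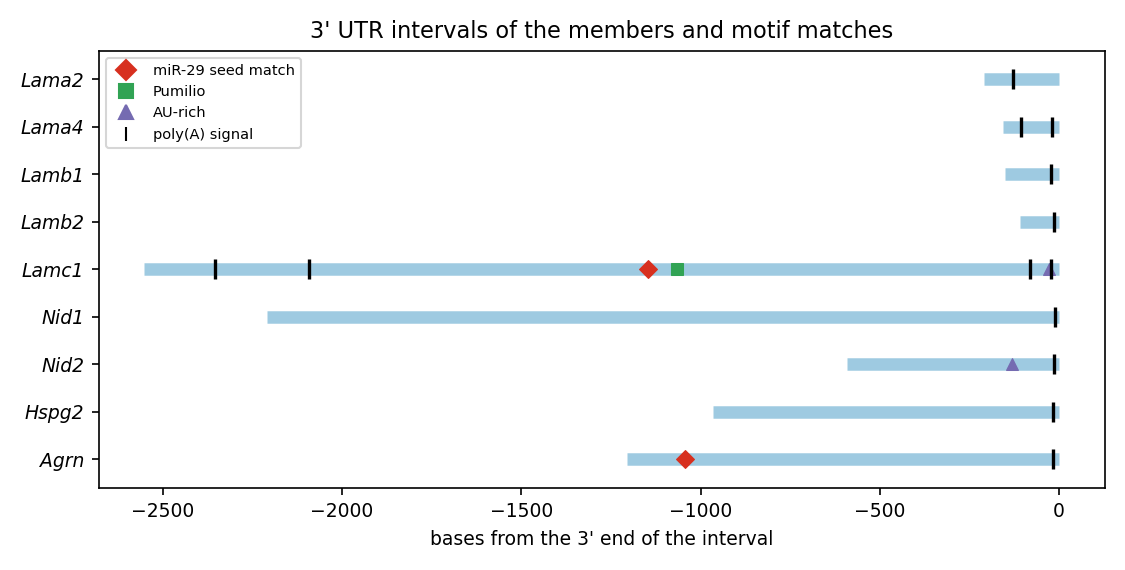
The 3′ UTR intervals of the 9 genes are drawn to scale in bases from their 3′ end, with matches to 4 motifs on the transcript strand. The miR-29 match occurs in Lamc1 and Agrn only, and every interval holds a poly(A) signal, within 12 to 23 bases of the end in all but Lama2.

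Levels are given as CPM relative to the reads counted on 1 interval per gene of that library. Since 3′ end libraries give about 1 fragment per transcript, reads were not divided by transcript length. The 9 genes summed to 3048 ± 208 CPM in the labeled libraries (SD, n = 3) and to 3340 and 3389 CPM in the unlabeled ones. Nid1 made up 69.4%, 54.1% and 60.3% of that sum in labeled replicates 1, 2 and 3.

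The nidogens were thus far apart in level. Nid1 had 2087.5, 1548 and 1974 CPM in labeled replicates 1, 2 and 3 and 2159.7 and 1935 CPM in unlabeled replicates 1 and 2. Nid2 had 201 CPM, 159.8 CPM and 182 CPM in the labeled and 268 CPM and 223 CPM in the unlabeled libraries. Nid1 exceeded Nid2 by a ratio of 9.69 to 10.9 in each labeled library, with a mean of 10.3 ± 0.59 (SD, n = 3). No library of Nid2 came near the lowest value of Nid1.

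Of the laminin chains, the γ1 chain and the β1 chain were the most abundant by mean. Lamc1 had 215, 222 and 283 CPM in labeled replicates 1 to 3 and 275 and 307 CPM in the unlabeled libraries. Lamb1 had 237, 261 and 217 CPM in the labeled and 329 and 354.4 CPM in the unlabeled libraries. The ratio of Lamb1 to Lamc1 was 1.02 ± 0.22 (SD, n = 3), so these chains did not differ beyond their spread. Lamb2 varied more, with 93.9, 241 and 136 CPM in the labeled and 101.5 and 157 CPM in the unlabeled libraries. Lamb1 exceeded Lamb2 in labeled replicate 1 by a ratio of 2.52 and in labeled replicate 2 by 1.08.

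The α chains were lower. Lama2 had 78.0, 67.8 and 65.2 CPM in the labeled and 98.2 and 102 CPM in the unlabeled libraries. Lama4 had 30.5, 106 and 65.2 CPM in the labeled and 38.0 and 129.5 CPM in the unlabeled libraries. Which α chain led depended on the library, with a ratio of Lama2 to Lama4 of 2.56 in labeled replicate 1 and of 0.638 in labeled replicate 2.

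Hspg2, the perlecan gene, was the least even of the genes. It had 36.8, 235 and 310.2 CPM in labeled replicates 1, 2 and 3 and 46.1 and 159.6 CPM in unlabeled replicates 1 and 2, so that its highest labeled value was 8.43 times its lowest. Agrn was the lowest of the 9 in every library, with 29.2, 21.8 and 39.5 CPM in the labeled and 24.96 and 22.1 CPM in the unlabeled libraries, which rest on only 20 to 46 reads.

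Ordered by their labeled means, Nid1 (1870 ± 284 CPM, SD, n = 3) was followed by Lamc1 (239.8 ± 37.2), Lamb1 (238 ± 21.9), Hspg2 (194 ± 141), Nid2 (181 ± 20.7), Lamb2 (157 ± 75.7), Lama2 (70.3 ± 6.79), Lama4 (67.3 ± 38.0) and Agrn (30.2 ± 8.92). Neighbours in this order overlapped in their labeled values except Nid1 with Lamc1 and Lamb2 with Lama2.

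**Figure D2:**
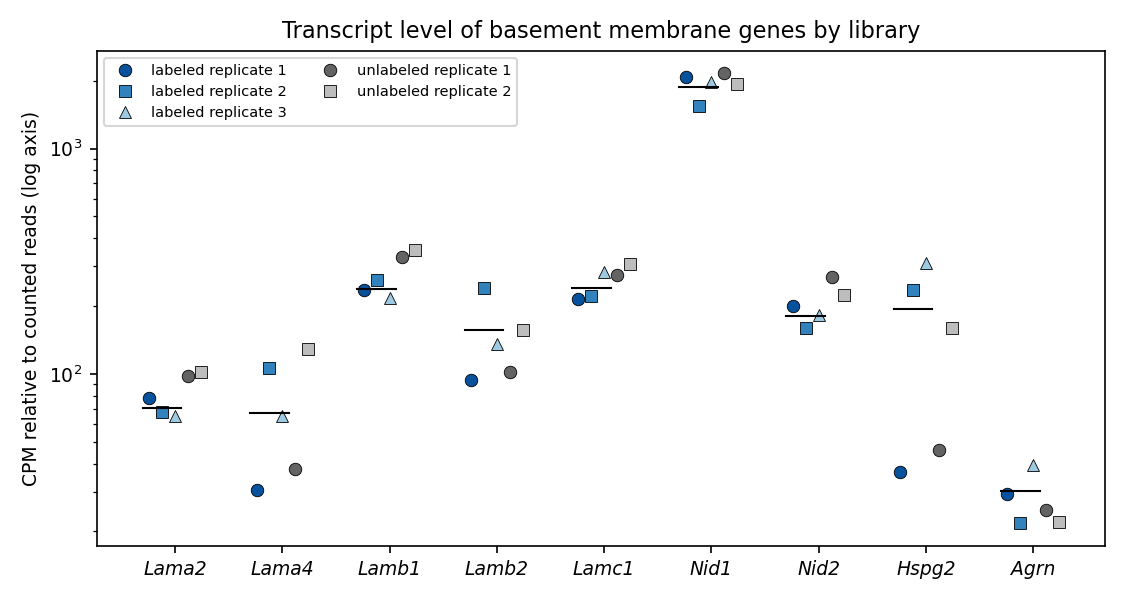
Transcript level of the 9 genes in each library, as CPM relative to counted reads on a log axis, with a bar at the mean of the 3 labeled libraries. Nid1 lies between 1548 and 2159.7 CPM in every library. Hspg2, Lama4 and Lamb2 are lowest in the replicates numbered 1 of both groups, as is Lamc1 by smaller ratios.

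Hspg2, Lama4 and Lamb2 shared a pattern across libraries. Relative to replicate 1, Hspg2 was at 6.39 in labeled replicate 2, at 8.43 in labeled replicate 3 and, within the unlabeled pair, at 3.46. The corresponding ratios were 3.49, 2.14 and 3.41 for Lama4 and 2.57, 1.45 and 1.54 for Lamb2. The other 6 genes stayed between 0.742 and 1.35. Among these, Lamc1 was also lowest in replicate 1 of both groups, with ratios of 1.03, 1.31 and 1.12. The intervals of these 3 genes also had the highest GC content of the 9, at 59.9% for Hspg2, 53.2% for Lamb2 and 52.9% for Lama4, against 28.1% to 48.6% for the rest.

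The same tendency ran through the transcriptome. Across 9499 genes, Spearman's rho of the GC content of the interval with the ratio to replicate 1 was 0.36 for labeled replicate 2, 0.34 for labeled replicate 3 and 0.31 for unlabeled replicate 2, with genes not being independent replicates. Genes with at least 55% GC, the class of Hspg2, had median ratios of 1.58, 1.47 and 1.29 in labeled replicate 2, labeled replicate 3 and unlabeled replicate 2. Genes with 45% to 55% GC, the class of Lama4, Lamb2, Lamc1 and Agrn, had 1.14, 1.11 and 1.08. Genes below 45% GC had 0.822, 0.815 and 0.836. The summed markers of several cell types, those of fibroblasts included, were also lowest in the replicate numbered 1 of each group, whereas those of Schwann cells were highest there. In labeled replicates 1, 2 and 3 and unlabeled replicates 1 and 2, endothelial markers summed to 145, 256, 156, 179 and 263 CPM, pericyte and smooth muscle markers to 90.7, 110, 196, 162 and 171 CPM, macrophage markers to 54.6, 99.6, 77.1, 59.7 and 104 CPM and cardiomyocyte markers to 0.63, 7.53, 5.93, 2.17 and 8.03 CPM. Schwann cell markers summed to 33.0, 15.9, 21.7, 44.0 and 26.1 CPM in the same order. Single markers did not all follow, as the endothelial gene Emcn had 19.0, 18.4, 11.9, 25.5 and 24.1 CPM. The part of GC content or of other cell types in the values of Hspg2, Lama4 and Lamb2 was not tested.

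**Figure D3:**
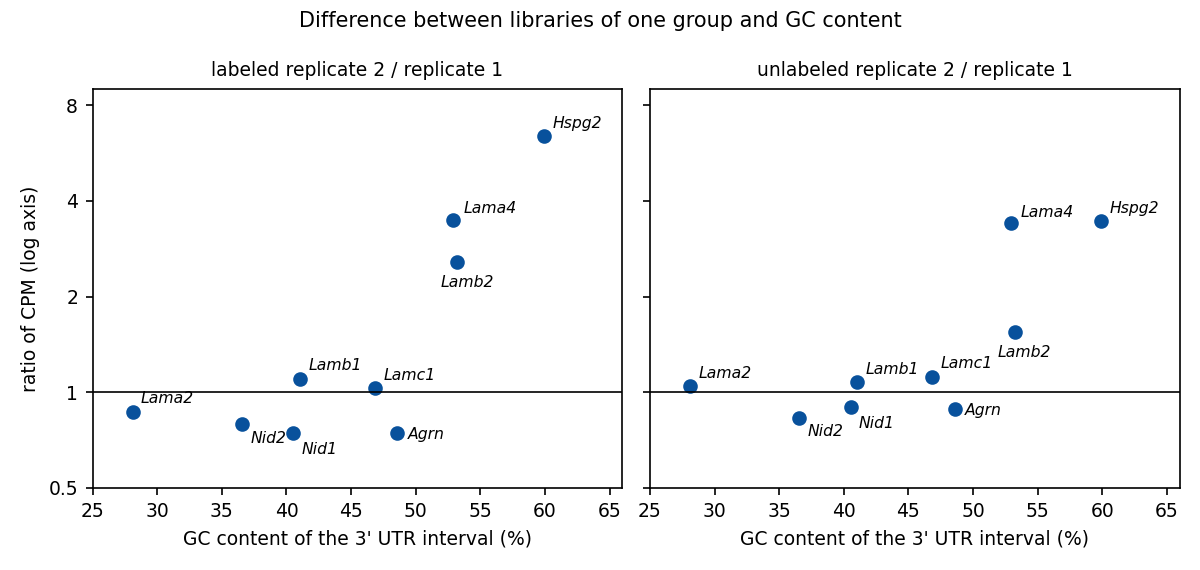
The ratio of CPM in replicate 2 to that in replicate 1, on a log axis, is plotted against the GC content of the counted interval for the 9 genes, in the labeled group (left) and the unlabeled group (right). Hspg2, Lama4 and Lamb2, at 52.9% GC and above, have ratios of 2.57 to 6.39 in the labeled and 1.54 to 3.46 in the unlabeled group, while the other genes stay near 1.

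The first comparison asked whether S4U raised the T>C conversion rate of each transcript. All 9 genes carried new RNA by this measure, and every labeled library of each gene had a higher rate than both unlabeled libraries. Lamc1 had the highest rate of the 9 in each of the labeled libraries, and Nid1 and Nid2 were among the 3 lowest in each. The beta-binomial test, fitted per interval over the 5 libraries, called 9 of 9 at an unadjusted p below 0.05, where 94.6% of all intervals tested were called.

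The γ1 chain stood at the top. Lamc1 had rates of 3.54%, 3.001% and 3.16% in labeled replicates 1, 2 and 3, from 330 of 9317, 195 of 6497 and 112 of 3540 covered T positions, against 0.0692% and 0.0257% in the unlabeled libraries. The rate of Lamc1 was 2.19 to 2.77 times that of Nid1 and 1.67 to 1.80 times that of Lamb1 in the same library.

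The nidogens were low, and Nid1 was even between libraries. Nid1 had 1.28%, 1.37% and 1.37% in the labeled libraries, on 18083 to 60249 covered T positions, with 0.0807% and 0.0382% in the unlabeled ones. These are the most precise values of the 9, with 95% Wilson intervals of 1.19% to 1.37%, 1.25% to 1.503% and 1.21% to 1.55%, which cover counting error only. Nid2 had 1.01%, 1.35% and 1.38% in the labeled and 0.0387% and 0.0220% in the unlabeled libraries. Nid1 and Nid2 overlapped in rate although their levels differed by a ratio of 10.3.

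The mean rates of the β and α chains lay between those of the nidogens and Lamc1, although Lamb2 was below Nid1 in labeled replicate 1. Lamb1 had 2.11%, 1.80% and 1.76% in the labeled and 0.0611% and 0.0393% in the unlabeled libraries. Lamb2 had 1.18%, 1.89% and 1.99% in the labeled libraries, no conversion in unlabeled replicate 1, which allows up to 0.119% when the limit is set at 3 conversions of the covered T positions, as for every count of 0 here, and 0.0443% in unlabeled replicate 2. Lama2 had 1.51%, 1.66% and 2.02%, with 0 of 3726 covered T positions converted in unlabeled replicate 1, which allows up to 0.0805%, and 0.0448% in unlabeled replicate 2. Lama4 had 1.91%, 2.20% and 2.80% on only 429 to 1863 covered T positions, no conversion in unlabeled replicate 1, which allows up to 0.436%, and 0.0557% in unlabeled replicate 2. The Wilson intervals of Lama2 and Lama4 overlapped in each labeled library.

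The proteoglycan genes varied between replicates. Hspg2 had 2.49% in labeled replicate 1, from 30 of 1203 positions with a Wilson interval of 1.75% to 3.54%, and 1.49% and 1.54% in labeled replicates 2 and 3, against 0.0575% and 0.0334% in the unlabeled libraries. Its replicate with the highest rate was thus the one with the lowest level. Agrn had 2.39%, 0.996% and 1.08% from 18, 5 and 4 conversions, and none in either unlabeled library, where 0 of 1206 positions in all allows up to 0.249%. The Wilson intervals of Agrn were wide, with 1.52% to 3.75% in labeled replicate 1 and 0.426% to 2.31% in labeled replicate 2.

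**Figure D4:**
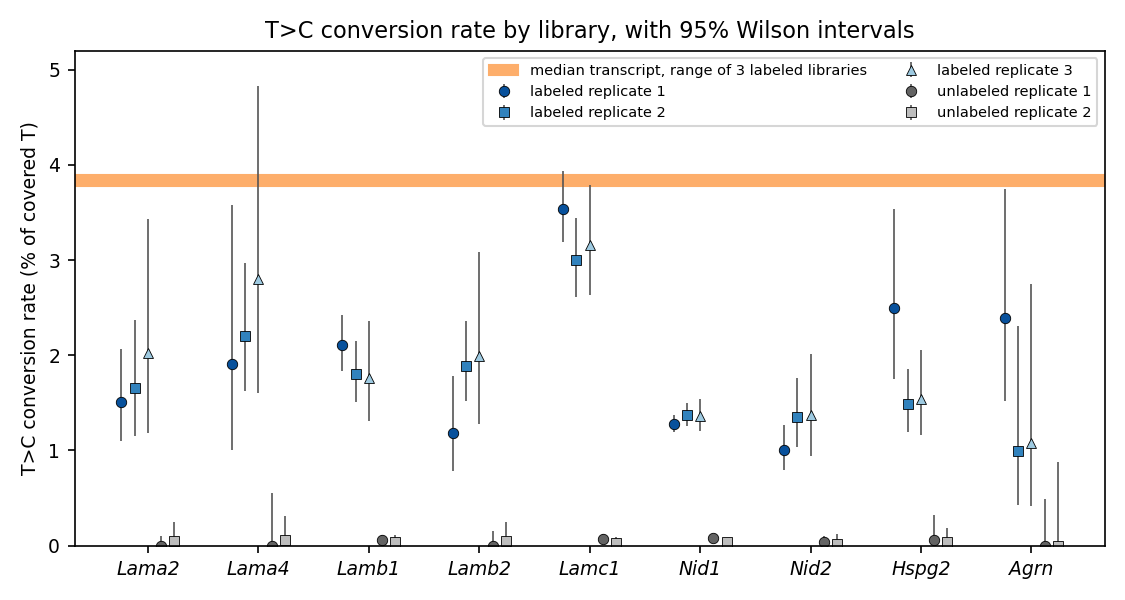
T>C conversion rate of the 9 genes in each library, in % of covered T positions, with 95% Wilson intervals for counting error. The band spans the rate of the median transcript in the 3 labeled libraries, 3.78% to 3.90%, and all 27 labeled values lie under it, those of Lamc1 closest.

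The share of reads with at least 1 conversion was highest for Lamc1 in each labeled library, and the order of the other genes differed in part from that of the rates. Of the Nid1 reads, 16.0% ± 0.41 had a conversion in the labeled libraries (SD, n = 3), against 1.53% and 0.727% in the unlabeled ones. Of the Lamc1 reads, 46.7% ± 5.36 had one, and of the Lama2 reads 24.2% ± 0.56. Nid2 had 15.5%, 17.3% and 20.7% in labeled replicates 1, 2 and 3. In labeled replicate 1 the shares of Lamb2 (12.2%) and Lama4 (14.6%) were below those of both nidogens. This share also depends on how many T positions a read covers.

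The second comparison set each transcript against the median transcript of the same library. The median T>C rate over the 2121 genes that reached 1000 covered T positions in each labeled library was 3.78%, 3.90% and 3.88%. The 27 labeled rates of the 9 genes were all lower. With at least 100 covered T positions, 9 of 9 genes were below their library's median in all 3 labeled libraries, as were 21.7% of the 8394 genes tested. Of those 8394 genes, 2121 reached 1000 covered T positions in each labeled library, against 5 of the 9. The part of depth in this contrast, and in the later one on at least 100 covered T positions, was not tested.

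Of the 9 genes, 5 reached 1000 covered T positions and were tested with limma, and 4 of these had lower odds of conversion than the median transcript at a Benjamini-Hochberg adjusted p below 0.05, where 20.0% of all genes were lower. Nid2 was lowest, with a log2 odds difference of -1.67 ± 0.10 (SE, n = 3, limma adjusted p = 6.59e-05), which corresponds to 0.314 of the median odds. Nid1 followed at -1.57 ± 0.065 (limma adjusted p = 2.43e-05). Lamb1 was lower by a difference of -1.06 ± 0.084 (limma adjusted p = 0.000200).

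Perlecan was called with less margin. Hspg2 had a difference of -1.13 ± 0.16 (limma adjusted p = 0.00312), and the call was lost without labeled replicate 3, at -1.03 and an adjusted p of 0.0703. Lamc1, at -0.27 ± 0.080, missed the threshold (limma adjusted p = 0.0518), with 0.831 of the median odds.

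When genes with at least 100 covered T positions were admitted, all 9 were tested, and 5 were lower, where 3.50% of the 8394 genes were. Lama2 was called at -1.17 ± 0.13 (limma adjusted p = 0.0219) and Lamb2 at -1.24 ± 0.18 (limma adjusted p = 0.0442), beside Lamb1, Nid1 and Nid2. Not called were Hspg2 (limma adjusted p = 0.0794), Lama4 at -0.74 ± 0.14 (0.0834), Agrn at -1.42 ± 0.28 (0.0966) and Lamc1 (0.316). The point estimates of all 9 were below 0.

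**Figure D5:**
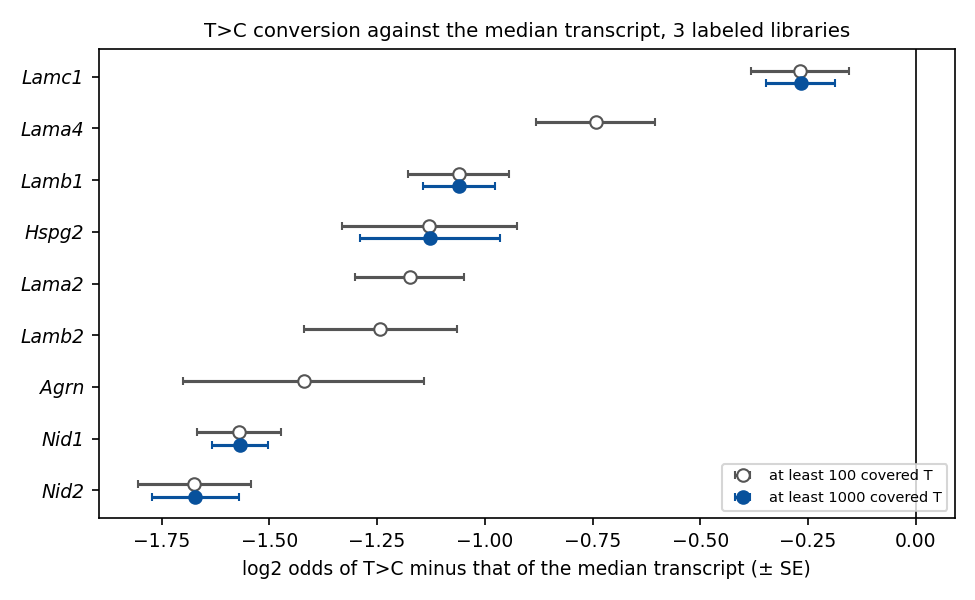
Difference of the log2 odds of T>C conversion from the median transcript in the 3 labeled libraries, with SE, for genes with at least 1000 covered T positions (filled) and with at least 100 (open). All 9 estimates lie below 0, from -1.67 for Nid2 to -0.27 for Lamc1.

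The third comparison asked whether read counts differed between cultures with and without S4U. All 9 genes passed the filter on low counts. At a Benjamini-Hochberg adjusted p below 0.05 none was called by edgeR, where 0% of the 9807 genes tested were called, and none had an unadjusted p below 0.05, where 5.97% of all genes did. DESeq2 called 9 genes higher and 7 lower in all, and none of the 8 of these genes for which it gave an adjusted p.

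Lama2, Lamb1 and Nid2 nevertheless had every labeled CPM below both unlabeled values, as did 13.1% of all genes tested. Their log2 fold changes were -0.43 ± 0.25 (SE) for Lama2, -0.44 ± 0.23 for Lamb1 and -0.36 ± 0.24 for Nid2, with the smallest edgeR adjusted p of the 9 genes at 0.910 for Lamb1. Nid1 had -0.05 ± 0.25 and Lamc1 -0.20 ± 0.26. Lama4 had -0.25 ± 0.67, Lamb2 0.36 ± 0.45, Agrn 0.40 ± 0.38 and Hspg2 0.98 ± 0.90, and these 4 had labeled values on either side of an unlabeled one.

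The fold change of Hspg2 rested on libraries that differed within their groups. Leaving out 1 labeled library at a time gave a log2 fold change of 1.498 without replicate 1, 0.82 without replicate 2 and 0.49 without replicate 3. The edgeR adjusted p of these fits ran from 0.441 to 0.999814. The log2 fold change was 0.31 without unlabeled replicate 1 and 2.19 without unlabeled replicate 2, which each leave 1 unlabeled library. Without both libraries numbered 1, an alternative chosen after seeing the data that leaves 2 labeled libraries and 1 unlabeled one, it was 0.79 ± 0.26 (SE) with an edgeR adjusted p of 0.0509, and the lone unlabeled library is then assumed to vary like the labeled ones. That fit called 165 genes higher and 206 lower of 9620 tested, and none of these 9. In it Lama2 had -0.58 ± 0.28 and Lamb1 -0.51 ± 0.24, with adjusted p of 0.271 and 0.254. The sign of Lama4, Lamb2 and Nid1 changed when 1 library was left out, each time without a call.

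The genes around these 9 in the basement membrane were described from fixed lists. None of their genes was called for read counts, as none was in all 9807. Among further laminin chains, Lama1 and Lama3 had at most 1 read in a library, and Lamc3 had no read in any library.

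Of the 8 network and associated collagens, 4 were at or above the mean level of Agrn. Col4a1, a chain of the main collagen IV trimer, had 4106 ± 291 CPM (SD, n = 3) and a T>C rate of 2.70% ± 0.045 in the labeled libraries. Col4a2, its partner chain, had 1076 ± 321 CPM and 1.83% ± 0.33. Col4a5 was at 213 ± 4.45 CPM, a level like that of Lamc1 and Lamb1, and at 1.33% ± 0.034, like that of Nid1. These 3 were lower than the median transcript in odds of conversion out of 4 tested on at least 1000 covered T positions, with log2 differences of -0.54, -1.12 and -1.57 (limma adjusted p from 2.43e-05 to 0.00131), whereas Col15a1 had -0.07.

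Of the crosslinking and associated proteins, 2 of 13 reached that depth. Smoc2, a matricellular protein, was lower with a log2 difference of -1.99 (limma adjusted p = 3.72e-05) at 306 ± 63.4 CPM, and Pxdn, the peroxidase that crosslinks collagen IV, had 0.13 at 70.8 ± 13.7 CPM. Among the receptors and anchors, all 3 of 15 that could be tested were lower. Dag1, which encodes dystroglycan and so the receptor of laminin, agrin and perlecan, had -0.38 (limma adjusted p = 0.00648), Itgb1, the integrin β1 chain, -0.50 (0.00286) and the sarcoglycan Sgcb -0.56 (0.00291). When genes with at least 100 covered T positions were admitted, 0 of 8 receptors and 2 of 4 collagens were lower, as Dag1 (limma adjusted p = 0.160), Itgb1 (0.102), Sgcb (0.0997) and Col4a1 (0.0794) lost the call. Of the assembly and processing enzymes, P4hb, a subunit of the collagen prolyl hydroxylase, was lower at -0.87 (limma adjusted p = 0.000287). The median log2 difference was -1.13 over the 5 tested members, -0.83 over the 4 collagens, -0.50 over the 3 receptors and -0.79 over the 8 fibroblast markers, of which 5 were lower. On at least 100 covered T positions 4 of these 8 were lower, with Col1a1 losing the call (limma adjusted p = 0.0719).

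Further listed genes at or above the mean level of Agrn had 37.1 to 156.5 CPM in the labeled libraries. Their mean T>C rates were 4.15% for Npnt, 3.84% for Ntn1, 2.89% for Smoc1, 3.70% for Sspn, 4.06% for Utrn, 4.16% for Dmd and 2.08% for Bmp1. Tinagl1, at 21.2 ± 7.27 CPM, was lower than the median transcript when at least 100 covered T positions were required, at -1.01 (limma adjusted p = 0.0398). Npnt, which encodes the integrin ligand nephronectin, had 45.05, 46.0 and 27.7 CPM in the labeled and 4.34 and 5.02 CPM in the unlabeled libraries, without overlap, and its log2 fold change of 3.17 ± 0.43 had an edgeR adjusted p of 0.434. Col15a1 had 125, 137 and 107 CPM in the labeled and 59.7 and 68.3 CPM in the unlabeled libraries, with a log2 fold change of 1.02 ± 0.27 (edgeR adjusted p = 0.599).

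A median profile over 3 labeled log odds and 5 log2 levels was taken from the 5 members with at least 1000 covered T positions. Among the 2116 other genes of that depth, those most like it were Ndufa2, Eln and Ptgfrn. Their distances were 0.944, 1.06 and 1.12, in units of the SD over genes, against a median of 3.07 for these 5 members themselves. Eln, the elastin gene, had 209 ± 8.28 CPM and a T>C rate of 0.0169 ± 0.00245 as a fraction (SD, n = 3).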

How the data were processed

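Per the labels and the study's methods, the authors extracted unique molecular identifiers with UMI-tools, mapped 3′ end reads to mm39 with SLAM-DUNK 0.4.3, and deduplicated the mapped reads. The authors deposited, per 3′ UTR interval and library, read counts, counts of covered T positions and of T>C conversions without normalization, the conversion rate as a fraction (conversions over covered T) and a CPM. The deposited CPM of a library is scaled to 7.58 to 28.9 times the reads counted here, so CPM was recomputed relative to counted reads. The 97442 rows per table held 40428 distinct intervals, and repeats were used once. T content matched GRCm39 for 40380 of 40380 intervals, and coordinates are counted from 1.

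For T>C rates a likelihood-ratio test of beta-binomial fits was used (chi-square, 1 degree of freedom, two-sided, unadjusted p below 0.05), whose p is too small where libraries vary much. Odds of conversion (0.5 added to both counts) were set against the library median with limma, intercept only. Read counts were tested with edgeR (quasi-likelihood, TMM, filterByExpr). DESeq2, other filters and scales, the replicate number as a block and leaving out each library were alternatives. Tests were tried on simulated data. Versions were Python 3.11.15, pandas 2.3.3, numpy 2.4.6, numba 0.67.0, scipy 1.17.1, matplotlib 3.10.9, DESeq2 1.42.0, limma 3.58.1, edgeR 4.0.16 and R 4.3.3.

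The genes named are every member, listed basement membrane genes with a call or a level of at least the lowest member, and the 3 genes nearest to the members' median profile. Some listed genes are not reported here. Members and lists were chosen with earlier results of these data known. Motif shares use intervals within 20% of the same length. Protein sequences were not analysed here.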

Additional observations from a re-analysis of the deposited data

How the results depend on the processing

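Depth limits these values: 4 of the 9 genes had under 1000 covered T positions in a labeled library, and Agrn rests on 4 to 18 conversions in each. When 1000 covered T positions were required in each library, 5 genes could be tested for a raised T>C rate and all 5 were called, as were 3154 of all 3156 intervals tested. The count is lower since fewer intervals were tested. All 9 were called under every other alternative run, with 9 to 9 when libraries were left out in turn, where the beta-binomial alternatives called 84.7% to 95.1% of all intervals. The count of genes lower than the median transcript was 4 of 5 tested without labeled replicate 1 or 2, and 5 of 7 without replicate 3, where Lama2 and Lamb2 entered. Of all genes, 289 of 2163, 352 of 2125 and 359 of 4081 were then lower. Hspg2 lost this call on at least 100 covered T positions (-1.13, adjusted p 0.0794) and without labeled replicate 3 (-1.03, adjusted p 0.0703), and the cause was not tested. Centring on the library-wide rate moved the median of all genes by 0.13 and left 4 called. Of all 2121 genes tested, 631 were then higher and 356 lower, in place of 174 higher and 425 lower. On the deposited CPM scale the 9 genes summed to 251 in place of 3048, by construction of that scale, and the labeled sum was 2936 to 3141 when 1 labeled library was left out. For read counts, 0 of the 9 genes were called under every alternative, with 0 to 0 when libraries were left out in turn, where 0 of all genes were called too. Without both libraries numbered 1, 165 genes were higher and 206 lower of 9620.

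The replicate number as a block could be fitted for replicates 1 and 2 of both groups. However, the labels do not say that a number marks a shared preparation. Labeled replicate 3 is alone in its block and adds nothing to the group difference. The block fit thus leaves almost no spread within a gene, so its p-values, calls and SE are uncertain. Over genes, the deviation of unlabeled replicate 1 from its group mean had a Pearson's r of 0.784 with that of labeled replicate 1, -0.638 with labeled replicate 2 and -0.482 with labeled replicate 3. Deviations within the labeled group cancel out for each gene. Those of labeled replicate 1 had an r of -0.685 and -0.734 with those of labeled replicates 2 and 3. The negative values are thus largely tied to the positive one. The deviations of unlabeled replicate 2 are the mirror image and add no second observation. These values therefore do not settle whether the numbers pair the samples. With the replicate block, edgeR called 528 genes higher and 617 lower of 9807 in place of 0, 0 of the 9 genes, and limma 9 of 9 for the raised rate, as for 18435 of all 19240 intervals. Of the 9 genes, 4 had an unadjusted p below 0.05 with the block, as did 1179 genes higher and 1158 lower of 9807, and all 4 were lower in the labeled libraries: Lamb1 (-0.41, adjusted p 0.0574), Nid2 (-0.39, 0.0867), Lamc1 (-0.36, 0.116) and Lama2 (-0.39, 0.179). The log2 fold change of Hspg2 was then 0.27 ± 0.18 in place of 0.98 ± 0.90.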

Other observations

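Of the 14 intervals of the 9 genes, the 5 not used add little. A second Lama2 interval, chr10:26963991-26966045 on the minus strand of GRCm39, held 9, 4 and 1 reads in labeled replicates 1, 2 and 3 and 6 and 2 in the unlabeled libraries, with 7 of 212 covered T positions converted in labeled replicate 1. The second intervals of Agrn and Lamb2 repeat the first with ends shifted by 1 or 2 bases and held the same reads. A further interval each of Hspg2 and Agrn had 0 reads in all 5 libraries.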
